A study of Homo sapiens with 10 samples.

Results

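Tumours T6 and T8 are cell isolates from separate MDA-MB-231 xenografts that carry the same label, sensitive to the drug SM-164, and the comparison between them asks how far 2 tumours of 1 label differ. They were taken by the titles of the arrays, which gave 4 arrays of the 10 in the series, with replicates 1 and 2 of each tumour. MDA-MB-231 is an established human triple-negative breast cancer cell line, and SM-164 is a Smac mimetic, a compound that antagonises the IAP proteins. SCID mice bearing xenografts of the line were given SM-164 by vein (5 mg/kg, 5 days per week over 2 weeks), and tumour cells were isolated from the tumours that regrew. T6 and T8 therefore share the host strain, the drug, the dose and the regrowth, and no untreated xenograft was analysed here. The other arrays measured the cultured parental cells, labelled sensitive, and the regrown tumours T2 and T3, labelled resistant, with 2 arrays for each line. Each array was made from 5 ug of total RNA, and its values are log2 expression.

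Nothing in the labels tells whether a line's 2 arrays stem from separate cultures or isolations. The spread between them may thus be technical, and the p-values cover no other kind of spread. SCID mice lack mature B and T lymphocytes but keep macrophages, endothelium and fibroblasts, whose transcripts would be mouse, and how far mouse RNA binds these human probe sets was not tested. All 6 genes fixed as present in MDA-MB-231 cells (VIM, CD44, EGFR, ZEB1, AXL and FN1) lay above log2 5 on every T6 and T8 array, and their mean was 11.81 in both T6 arrays and 11.91 to 11.94 in the T8 arrays. Of 6 genes fixed as low in the line, the progesterone receptor gene PGR was below log2 5, at 3.95 in T6 and 3.80 in T8. CDH1, which encodes E-cadherin, was at 5.33 and 4.86 (0.47 ± 0.14, adjusted p = 0.0354), the 1 call among the 6, which ended without any 1 of the T6 and T8 arrays. The oestrogen receptor gene ESR1 read 6.69 and 6.56, next to 6.71 in parental cells, and EPCAM and GATA3 were above log2 8 in both tumours, so that these genes were not absent by the array's scale.

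IAP proteins restrain cell death in more than one way. XIAP binds caspases directly, while BIRC2 and BIRC3 ubiquitinate RIPK1 at the TNF receptor and steer its signal towards NF-kB and survival. A Smac mimetic degrades or occupies these proteins, so that TNF made by the cells themselves can kill them, and interferon, NF-kB and EGFR-ERK signalling are known to set how readily that happens. Cells that regrow as separate tumours are separate lineages of 1 starting line, and their expression can differ in such programmes and in larger blocks of neighbouring genes.

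Of 14929 genes tested, 2253 were called between T6 and T8 at a Benjamini-Hochberg adjusted p under 0.05 (limma), which is 15.1%. Of these, 696 were higher in T6, or 4.66% of the genes tested, and 1557 were lower in T6, or 10.4%. Most differences were small. The median size was 0.38 on the log2 scale over the called genes and 0.13 over all genes, and 74 called genes (0.496% of those tested) differed by log2 1 or more, 27 of them higher and 47 lower in T6. In each of the 2253 called genes the 2 T6 arrays lay wholly above or wholly below the 2 T8 arrays, which was also the case in 61.1% of all genes tested. The excess of lower calls moved with the scaling between arrays. Higher calls were 30.9% of all calls as deposited, 48.3% after each array was quantile-normalised once more (1293 higher and 1385 lower) and 27.6% after centring on a common median (380 higher and 996 lower). Leaving out an array lowered the count to 940 without T6 replicate 1, 1077 without T6 replicate 2, 1124 without T8 replicate 1 and 1037 without T8 replicate 2, and the number at log2 1 or more was then 74 to 79. That number was 48 with a gene's probe sets averaged and 67 with repeated quantile normalisation. Arrays of T6 correlated at 0.9983 and those of T8 at 0.9976, against 0.9930 to 0.9936 between the tumours, over genes that are not independent of each other.

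The largest differences included genes lower and genes higher in T6. ESM1, which encodes endocan, a proteoglycan secreted by endothelial cells and by some tumour cells, stood at 4.34 and 4.28 in T6 and at 7.85 and 7.53 in T8. T6 was at the level of the parental cells (mean 4.32) and of T2 (4.56), below the log2 5 used as a filter, while T8 lay between these and T3 (10.49). The difference was -3.38 ± 0.15 (SE, 2 arrays a tumour; adjusted p = 1.72e-08). MAGEC1, a cancer-testis antigen normally confined to germ cells, read 6.22 and 6.08 in T6 against 8.90 and 8.67 in T8 (-2.64 ± 0.12, adjusted p = 1.72e-08). BEX5, of the brain-expressed X-linked family, read 5.94 and 6.03 against 8.51 and 8.59 (-2.56 ± 0.12, adjusted p = 1.72e-08). Parental cells were below both tumours in both genes, at 5.58 for MAGEC1 and 4.48 for BEX5, and nearer to T6. DAPK1, a calmodulin-regulated kinase that promotes cell death, was the reverse case. It read 4.96 and 5.11 in T6 and 7.59 and 7.50 in T8 (-2.51 ± 0.13, adjusted p = 1.72e-08), with 6.81 in parental cells, so that T6 stood below and T8 above the starting line.

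The remaining genes among the 15 largest lower in T6 were of mixed function. PHGDH, which catalyses the entry step of serine synthesis, read 6.71 and 6.80 in T6 and 8.24 and 8.33 in T8 (-1.53 ± 0.10, adjusted p = 4.06e-07), with T6 near the parental 6.89. FBP1, the gluconeogenic fructose bisphosphatase, read 8.57 and 8.55 against 10.12 and 10.26 (-1.63 ± 0.08, adjusted p = 1.72e-08), and here T8 was at the parental level of 10.20 and T6 below it. Both enzymes were lower in T6, one with T6 and the other with T8 at the parental level. Differences of -1.99 and -1.91 were found for AFF3, a nuclear protein of transcription elongation complexes, and PDE1C, a calmodulin-dependent cyclic nucleotide phosphodiesterase. FAT3, an atypical cadherin, differed by -1.86, GALNT14, which starts mucin-type O-glycosylation, by -1.70, and REEP1, which shapes the endoplasmic reticulum, by -1.60. The zinc finger pseudogene ZNF542P (-1.57), the placental gene PLAC1 (-1.52), TSPYL5 (-1.40) and TMLHE (-1.29), the entry enzyme of carnitine synthesis, completed the group.

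Among the genes higher in T6, DCDC2, a doublecortin-domain protein that binds microtubules, differed most. It read 8.20 and 8.03 in T6 and 5.51 and 5.57 in T8, with 4.66 in parental cells (2.57 ± 0.13, adjusted p = 1.72e-08). SLC28A2, a sodium-coupled nucleoside transporter, read 7.79 and 7.77 against 5.91 and 5.58 (2.03 ± 0.20, adjusted p = 1.78e-05). WDR72, a WD-repeat protein known from enamel formation, read 9.85 on both T6 arrays against 8.03 and 7.78 (1.95 ± 0.13, adjusted p = 3.28e-07). Parental cells were below both tumours for all 3 genes, at 4.66, 5.14 and 5.70, so these were genes that both tumours had above the cultured line and T6 by more. KYNU, which encodes kynureninase of tryptophan breakdown, had the same order, at 9.80 and 9.94 in T6, 8.71 and 8.70 in T8 and 6.42 in parental cells (1.16 ± 0.09, adjusted p = 1.13e-06). UCA1, a long noncoding RNA, read 10.88 and 11.04 in T6 and 9.57 and 9.61 in T8 (1.37 ± 0.09, adjusted p = 4.06e-07), and there T8 was at the parental 9.60.

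Several of the other genes higher in T6 act at the cell surface or in the matrix. They were VCAN, the proteoglycan versican (1.32), COL4A5, a basement membrane collagen chain (1.22), CSGALNACT1, a chondroitin sulfate synthase (1.19), ENTPD3, an ectonucleotidase (1.24), CLTRN, the membrane protein collectrin (1.49), and DEFB1, a secreted defensin (1.30). NHSL2 (1.55), the calcium-binding S100P (1.15) and the annexin ANXA10 (1.15) also lay in this group. The small heat shock protein gene HSPB8 differed by 1.37, but by 0.09 (adjusted p = 0.757, the highest over its alternatives) at the probe set left when less specific probe sets were excluded. Averaging a gene's probe sets in place of taking the brightest kept the sign in the 29 of these 30 genes that it tested and lowered the size by more than 1.5 times in 11 of them. Higher in T6, these were DCDC2 (1.31), SLC28A2 (1.04), WDR72 (0.86), NHSL2 (0.77), HSPB8 (0.73), COL4A5 (0.71), ENTPD3 (0.71) and CSGALNACT1 (0.62). Lower in T6, they were DAPK1 (-1.38), PDE1C (-1.26) and AFF3 (-0.62).

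**Figure D1:**
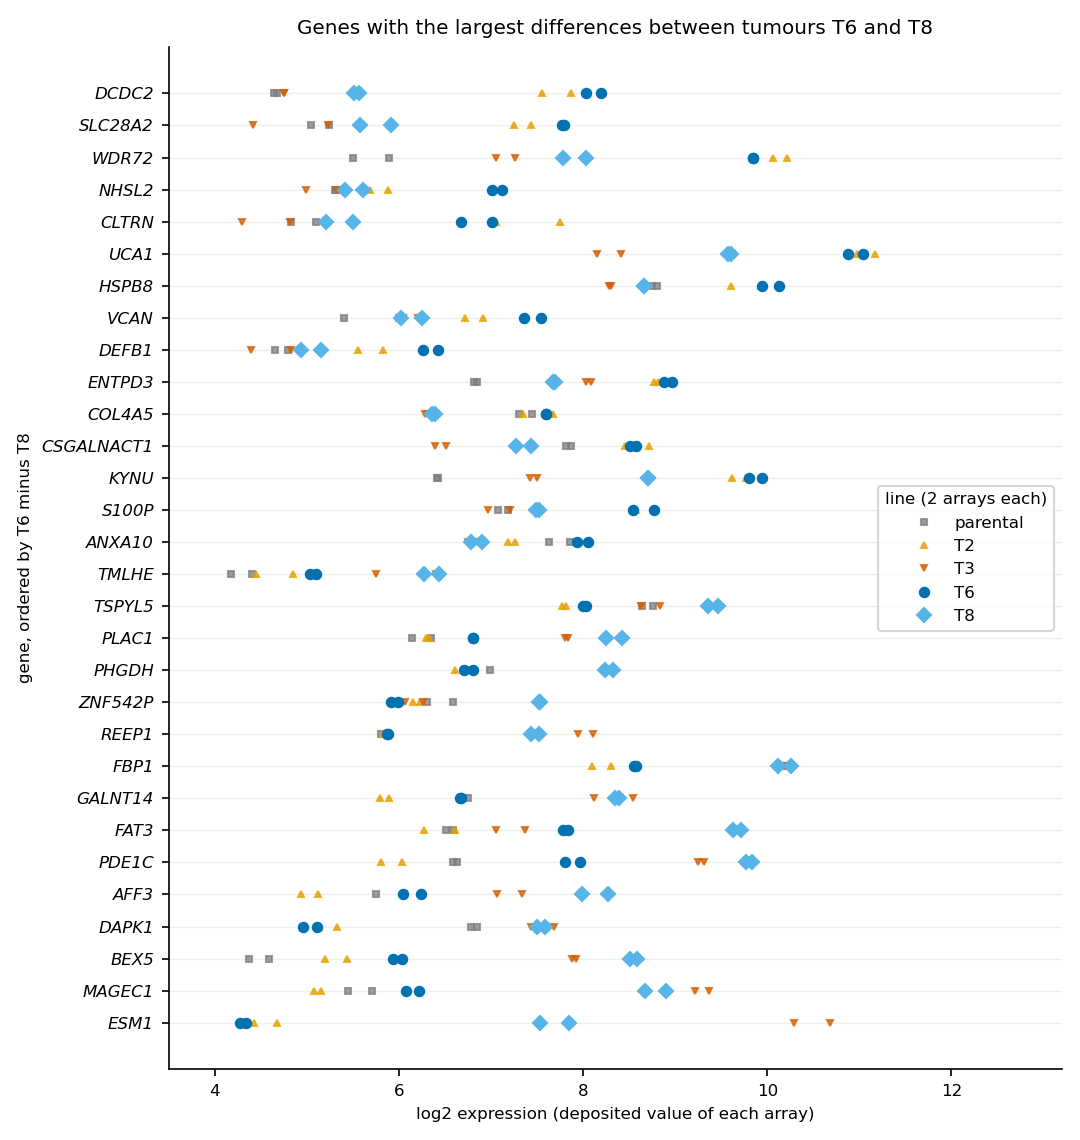
Log2 expression on each of the 10 arrays for the 30 genes with the largest differences between T6 and T8, 1 gene a row, with the horizontal axis giving the deposited log2 value and each point 1 array. The T6 and T8 points do not overlap in any row; ESM1 runs from 4.28 in T6 to 7.85 in T8, where T2 lies near T6 and T3 to the right of T8.

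The level of the parental cells relative to the tumours varied. Of the 27 genes higher in T6 by log2 1 or more, parental cells were below both tumours in 18, between them in 8 and above both in 1, and they were nearer to T8 in 22. Of the 47 lower in T6, parental cells were below both tumours in 27, between in 16 and above both in 4, and nearer to T6 in 38. On both sides, then, the tumour with the higher value was the one farther from parental cells in most of these genes. Over all 2253 called genes the parental level lay between the tumours in 842, below both in 987 and above both in 424.

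T2 and T3, the tumours labelled resistant, share no array with T6 and T8 and so give the same genes a separate pair. Both differences come from 1 fit with a shared estimate of each gene's spread, so the calls of the pairs are not separate tests. T2 and T3 differed by more, with 4594 genes called (30.8% of those tested) and 429 at log2 1 or more. The 2 pairs ran along the same line. Of the 2253 genes called between T6 and T8, 1494 were called in the same direction between T2 and T3, taking T6 with T2 and T8 with T3. No label sets this orientation. It joins the tumours that are nearer to each other by the mean absolute differences given below. Nearness by these same values favours a shared direction, here and in the gene groups that follow, so that the agreement is a description. That is 66.3% of the T6 and T8 calls and 32.5% of the T2 and T3 calls, against the 30.8% of all genes called between T2 and T3 in either direction. A further 78 were called in the opposite direction and 681 were not called. Across the 14929 genes the differences of the 2 pairs correlated at 0.60, as a description over genes that share arrays of a tumour and are not replicates. The mean absolute difference between tumours over genes was 0.164 for T6 and T2, 0.169 for T6 and T8, 0.188 for T8 and T3, 0.222 for T6 and T3, 0.247 for T8 and T2 and 0.254 for T2 and T3. By that measure T6 was about as far from T2, a tumour of the other label, as from T8. Whether the pairs differed was tested for each gene, and 1691 genes (11.3% of those tested) were called, 651 of them among the 2253.

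Most of the large differences between T6 and T8 had a counterpart. Of the 74 genes at log2 1 or more, 65 were called the same way between T2 and T3. The opposite direction was found for 2 of them. TENM2, a teneurin of neuronal cell adhesion, had means of 5.75 in T6 and 4.23 in T8 (1.52 ± 0.15, adjusted p = 1.85e-05) but 3.83 in T2 and 4.68 in T3 (-0.86). Only T6 had a mean above the log2 5 used as a filter, with parental cells at 4.05. The difference between T2 and T3 in TENM2 is thus one between values near background. AIF1L, an actin-binding protein, had 7.72 in T6 and 8.78 in T8 (-1.06 ± 0.12, adjusted p = 4.35e-05) but 7.88 in T2 and 6.81 in T3 (1.08). The pairs differed in both genes, with adjusted p = 6.11e-06 for TENM2 and 1.27e-06 for AIF1L (limma). Both genes were picked by the same values, so this test adds no support of its own.

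No call between T2 and T3 was made for 7 of the 74, all of them lower in T6, and they are named here because the group is small. ZNF542P read 5.99 and 5.91 in T6 and 7.53 and 7.52 in T8, while T2 and T3 arrays lay between 6.07 and 6.26. SERPINA1, the elastase inhibitor alpha-1-antitrypsin, read 5.30 and 5.40 against 6.45 and 6.58, with 9.45 and 9.27 in the parental arrays, and its difference of -1.17 was -0.66 with probe sets averaged. NLRP3, the inflammasome sensor, read 6.14 and 5.99 against 7.31 and 7.13. T8 was the tumour that stood out in ZNF542P and NLRP3, whereas all 4 tumours were far below parental cells in SERPINA1. ITGB2, the leukocyte integrin beta chain, read 7.87 and 7.98 in T6 and 9.12 and 8.83 in T8 (-1.05 ± 0.11, adjusted p = 2.03e-05), with means of 7.93 in T2 and 7.92 in T3. TNFSF18, the ligand of the receptor GITR, differed by -1.06 and KRTAP4-8, a keratin-associated protein, by -1.01. TNFSF18 read 4.62 and 4.56 in T6 and 5.54 and 5.76 in T8, with T2 and T3 arrays at 4.73 to 4.89. Among the tumours only T8 was above log2 5 in this gene. The difference between the pairs, which shares the values that these genes were chosen by, passed the test in these 6 genes. It did not in HS3ST3B1, a heparan sulfate sulfotransferase, where T6 minus T8 was -1.02, T2 minus T3 was -0.44 and the adjusted p of the difference was 0.153.

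**Figure D2:**
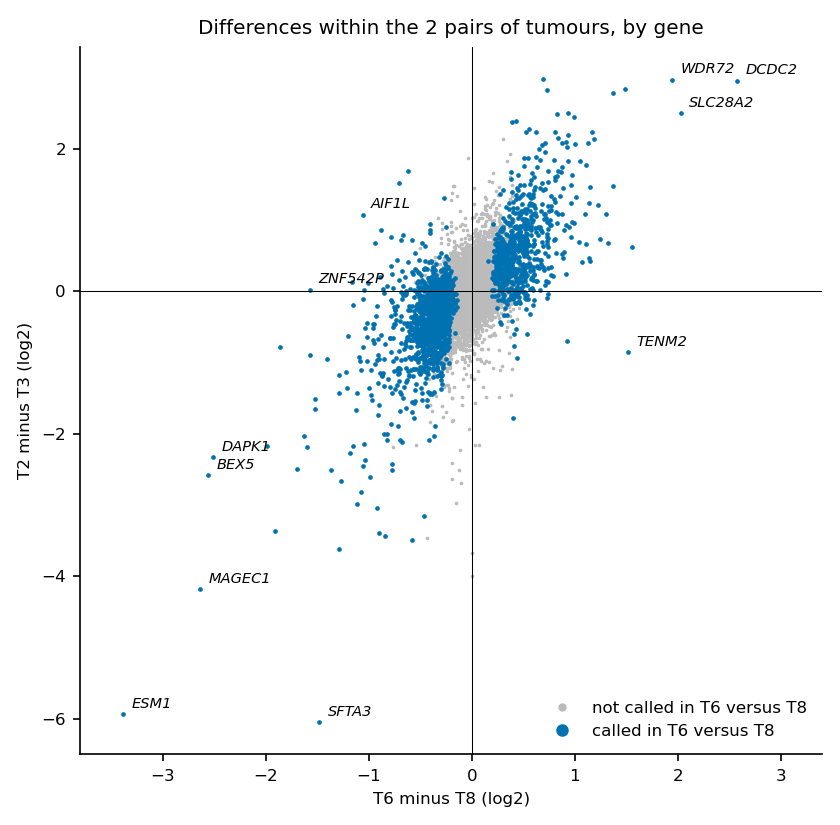
Each point is 1 of 14929 genes, with T6 minus T8 on the horizontal axis and T2 minus T3 on the vertical axis, both in log2; coloured points are the 2253 genes called between T6 and T8. Most coloured points lie at the lower left and upper right, with ESM1 at -3.38 and -5.93. TENM2, which is near background outside T6, and AIF1L lie on the other diagonal. SFTA3 (-1.48 and -6.05), which is near background outside T3, has the lowest value of T2 minus T3.

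Gene lists that fit this line, its drug and its host were read for called members against the background of 4.66% higher and 10.4% lower. At an unadjusted p under 0.05, which is given where a list had no call in a direction, the background was 8.61% higher and 18.5% lower. Between T2 and T3, 2069 of the 14929 genes tested were higher in T2 and 2525 lower, and the pairs differed in 11.3%. In these bulk arrays fewer cells of a kind and less RNA per cell cannot be told apart. Of the interferon list 15 of 40 members were higher, and of the hypoxia list 13 of 35. Of the ERK list 10 of 20 were lower, and of the amino acid list 8 of 32. The medians of T6 minus T8 were 0.26, 0.15, -0.29 and -0.08 in this order, against -0.03 over all genes tested.

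**Figure D3:**
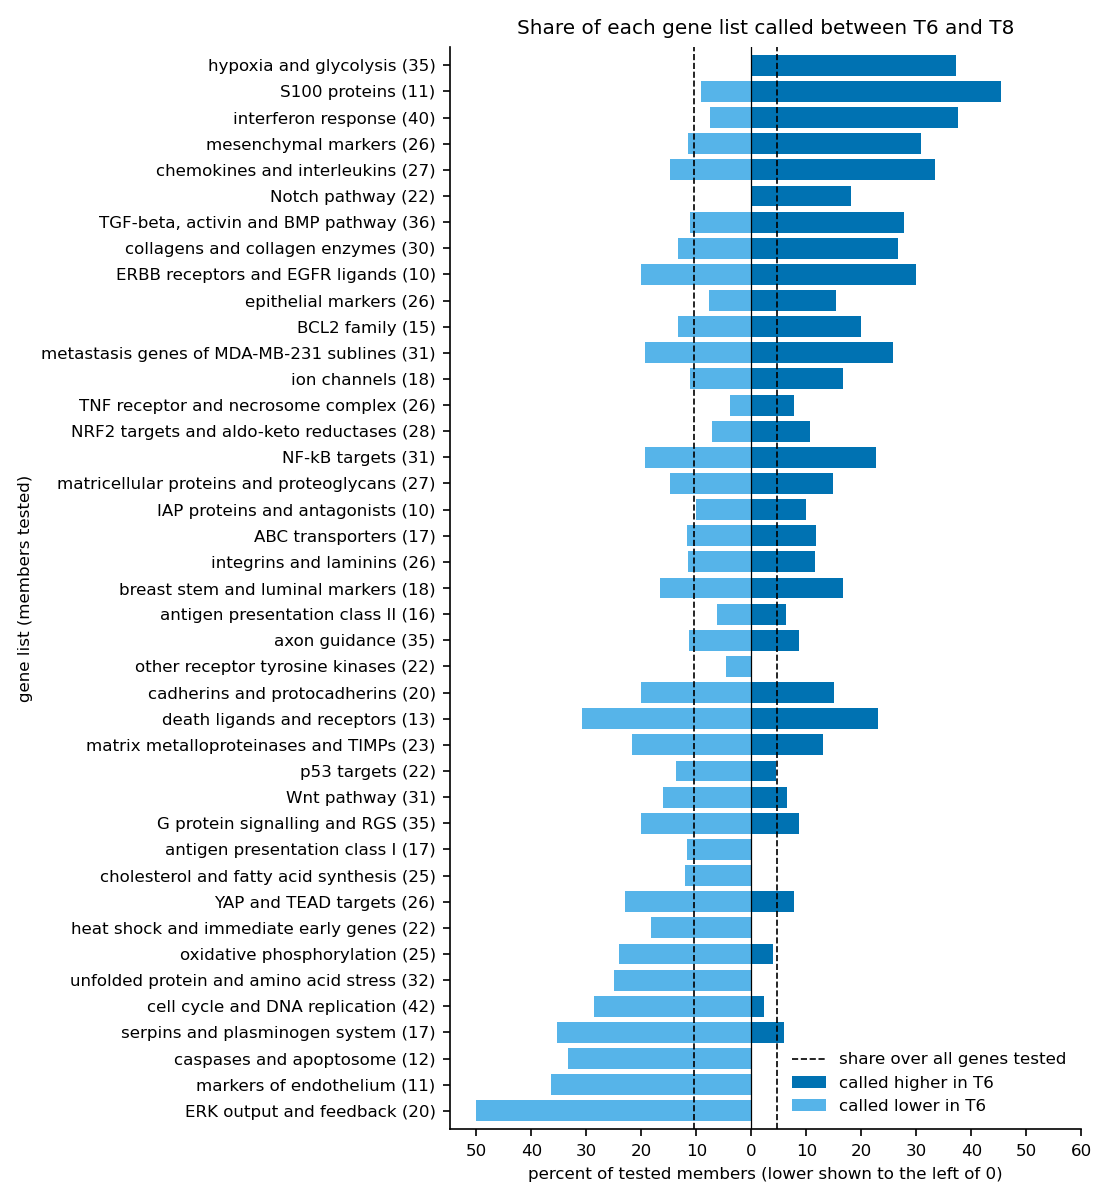
Percent of the tested members of each list called higher in T6 (right) and lower in T6 (left), for lists with 10 or more tested members, whose number stands in parentheses; dashed lines mark 4.66% and 10.4% over all genes tested. Hypoxia and glycolysis is at the top with 13 higher of 35, and ERK output and feedback at the bottom with 10 lower of 20.

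Of 40 tested interferon-stimulated genes, 15 were higher in T6, 3 lower and 22 not called. RSAD2, the antiviral protein viperin, read 6.24 and 6.27 in T6 and 5.17 and 5.24 in T8 (1.05 ± 0.12, adjusted p = 5.12e-05). OASL, which enhances RNA sensing by RIG-I, read 9.89 and 9.85 against 8.91 and 8.96 (0.93 ± 0.07, adjusted p = 2.06e-06), and OAS1, which makes the second messenger of RNase L, read 7.24 and 7.17 against 6.38 and 6.40 (0.81 ± 0.13, adjusted p = 0.0009). T6 was thus above T8 on every array, yet RSAD2 was higher still in parental cells, at 7.36, while OAS1 was lowest there, at 5.54. IFIT1, which binds viral RNA lacking a host cap mark (0.66), the helicase DDX60 (0.66), the GTPase GBP1 (0.65), HERC5, the ligase that attaches ISG15 to proteins (0.54), IFI27 (0.52) and ISG15, a ubiquitin-like modifier (0.51), were among the others. The 3 lower members were IFI35 (-0.33), IFITM1 (-0.26) and IFITM2 (-0.20), the latter pair being membrane proteins that restrict virus entry. Each lost its call without at least 1 array.

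In T2 and T3, 21 members of the interferon list were higher in T2 and 2 lower, and 13 were called the same way in both pairs. Their size was larger there, for instance 2.51 against 0.93 for OASL and 2.00 against 0.66 for IFIT1, and the pairs differed in 19 of the 40 members. IFI27 was an exception, at -0.10 between T2 and T3 (not called) against 0.52. With an array left out, the higher calls of T6 numbered 10 without T6 replicate 1, 13 without T6 replicate 2 and 11 without either T8 array, and the lower calls 1, 1, 1 and 0.

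Interferon acts through ISGF3, a STAT and IRF9 complex that binds a short element in promoters of its targets. The element's core, GAAA repeated after any 2 bases and read on both strands, was searched in RefSeq promoter windows of GRCh38.p14, which run from 250 bases before to 50 after a gene's start. The stretches around it are shown for 4 members that were higher in T6 together, with the matches in capitals, so that the shared feature can be seen.

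IFIT1: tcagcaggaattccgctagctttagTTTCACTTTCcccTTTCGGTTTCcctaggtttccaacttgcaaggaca

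ISG15: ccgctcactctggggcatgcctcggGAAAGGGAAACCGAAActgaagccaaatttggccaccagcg

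DDX60: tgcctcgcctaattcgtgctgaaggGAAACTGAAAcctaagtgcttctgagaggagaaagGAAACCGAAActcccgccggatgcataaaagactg

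GBP1: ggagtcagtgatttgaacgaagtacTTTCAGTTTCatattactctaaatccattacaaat

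They lie at chr10:89392482-89392554 on the plus strand for IFIT1, chr1:1013359-1013424 on the plus strand for ISG15, chr4:168318771-168318865 on the minus strand for DDX60 and chr1:89065301-89065360 on the minus strand for GBP1. All 4 stretches end upstream of the start, and each is written 5′ to 3′ in the direction of its gene. IFIT1, ISG15 and DDX60 held 2 matches, which overlap in ISG15, and GBP1 held 1. A match was present in 9 of the 12 windows found for the 15 higher members, in 1 of 2 for the lower members and in 11 of 17 for the members not called. Over all 27305 windows, 996 (3.65%) held it. The core was therefore a feature of the list, called or not, and a match does not show that the site is bound.

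Of 35 tested hypoxia and glycolysis genes, 13 were higher in T6, 0 lower and 22 not called (16 higher and 1 lower at an unadjusted p under 0.05). EGLN3, a prolyl hydroxylase that marks HIF for degradation and is itself a HIF target, read 7.43 and 7.44 in T6 and 6.83 and 6.57 in T8 (0.74 ± 0.13, adjusted p = 0.00121). ENO2, a glycolytic enolase, read 11.73 and 11.63 against 10.98 and 10.91 (0.73 ± 0.06, adjusted p = 3.32e-06). PDK1, a kinase that inhibits pyruvate dehydrogenase, read 9.65 and 9.52 against 9.05 and 8.72 (0.70 ± 0.13, adjusted p = 0.00211). T6 lay above T8 on each array in all 3 genes, and ENO2 was above the parental 10.49 in both tumours. The glucose transporters SLC2A3 (0.54) and SLC2A1 (0.35), PFKFB4 (0.51), the carbonic anhydrase CA12 (0.50), the mitophagy receptor BNIP3 (0.47), EPAS1, which encodes HIF-2alpha (0.44), and HIF1A (0.25) were higher as well.

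Of these 13, 11 were called the same way in T2 and T3. VEGFA, the main angiogenic factor, was not: T6 was higher than T8 by 0.29 ± 0.08 (adjusted p = 0.0199), whereas T2 minus T3 was -0.45, and the difference between the pairs had adjusted p = 0.000425. NDRG1, a stress and hypoxia gene, was higher in T6 by 0.30 and stood at -0.10, not called, in T2 minus T3. The count of higher members was 8 without T6 replicate 1 or T8 replicate 2, 9 without T6 replicate 2, 10 without T8 replicate 1 and 23 with repeated quantile normalisation.

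Of 20 tested members of the list of ERK output and feedback, which holds transcription factors induced by ERK and the feedback inhibitors they raise, 10 were lower in T6, 0 higher and 10 not called (12 lower and 0 higher at an unadjusted p under 0.05). EGR1, an immediate early transcription factor, read 9.11 and 9.18 in T6 and 10.06 and 10.09 in T8 (-0.93 ± 0.08, adjusted p = 7.29e-06), with 7.67 in parental cells. ETV5, a factor of the ETS family, read 9.25 and 9.19 against 9.92 and 9.88 (-0.69 ± 0.07, adjusted p = 2.25e-05), and SPRY4, a feedback inhibitor of receptor signalling, read 9.69 and 9.61 against 10.18 and 10.10 (-0.49 ± 0.08, adjusted p = 0.00119). T8 held the higher value in all 3. The tumours were on either side of parental cells for ETV5 (9.58) and SPRY4 (9.83), and both above them for EGR1. FOS (-0.48), MYC (-0.42), cyclin D1 (CCND1, -0.39), FOSL1 (-0.34), SPRED2 (-0.33), ETV4 (-0.30) and the phosphatase DUSP4 (-0.28) made up the rest, with CCND1 also on the cell cycle list. ETV5 was at -0.40 with probe sets averaged and at -0.45 without less specific ones, and the call of FOS ended without either T6 array or T8 replicate 1. Leaving out an array left 6 (T6 replicate 1), 5 (T6 replicate 2), 6 (T8 replicate 1) or 8 (T8 replicate 2), and repeated quantile normalisation gave 2 higher members beside the 10 lower.

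Between T2 and T3, 10 members of the ERK list were lower in T2 and 0 higher, and 7 members were lower in both pairs. FOSL1 was not among these, at 0.08 between T2 and T3 against -0.34 (adjusted p of the difference 0.00501). Upstream of ERK, ligands and receptors of the EGFR family split. EREG, which encodes epiregulin, read 11.75 and 11.40 in T6 and 10.81 and 10.58 in T8 (0.88 ± 0.14, adjusted p = 0.000741), and TGFA (0.49) and NRG1 (0.33) were higher too. HBEGF (-0.38) and the receptor EGFR itself (-0.32) were lower in T6, with 5 of 10 members called, or 3 without T6 replicate 1 or T8 replicate 1. The list of other receptor tyrosine kinases had 1 call of 22 (KDR, -0.46). The calls of HBEGF, NRG1 and EGFR ended with probe sets averaged, those of NRG1 and EGFR also without T6 replicate 1 or T8 replicate 1, that of EGFR without T6 replicate 2, and that of KDR without any 1 of the 4 arrays.

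Of the 32 tested members of the list of unfolded protein and amino acid stress, 8 were lower in T6, 0 were higher and 24 were not called (10 lower and 2 higher at an unadjusted p under 0.05). None of the 8 was a chaperone of the unfolded protein response. Next to PHGDH they included the other enzymes of serine synthesis, PSPH (-0.67 ± 0.14, adjusted p = 0.00477) and PSAT1 (-0.47 ± 0.10, adjusted p = 0.00494), and CTH, which makes cysteine (-0.58). ASNS, asparagine synthetase, read 9.45 and 9.56 in T6 and 10.30 on both T8 arrays (-0.79 ± 0.07, adjusted p = 8.15e-06), below the parental 10.73 in both, and its difference was -0.41 with probe sets averaged. ATF4, the transcription factor that raises these enzymes when amino acids are short, was itself lower (-0.36 ± 0.06, adjusted p = 0.00102), as were the amino acid transporter subunits SLC3A2 (-0.31) and SLC7A5 (-0.23). Of these 8, 7 were lower in T2 than in T3 as well, with the differences of ASNS (-1.34), CTH (-1.69) and PSPH (-1.50) larger there. SLC7A5 was not, at 0.11. Leaving out an array kept 6 or 7 lower members, and repeated quantile normalisation gave 3 higher and 7 lower.

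The promoter element bound by ATF4, with the core TGATGNAA, was searched in the same windows and on both strands. It is shown for ASNS, whose element is the textbook example.

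ASNS: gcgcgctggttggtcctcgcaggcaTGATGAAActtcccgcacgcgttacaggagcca

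The stretch lies at chr7:97872444-97872501 on the minus strand of GRCh38.p14 and ends upstream of the start. A match was found in 2 of the 7 windows of the lower members, ASNS and SLC3A2, in 3 of 22 windows of members not called, and in 1003 of 27305 windows overall (3.67%). In the other 5 windows these letters were not present.

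**Figure D4:**
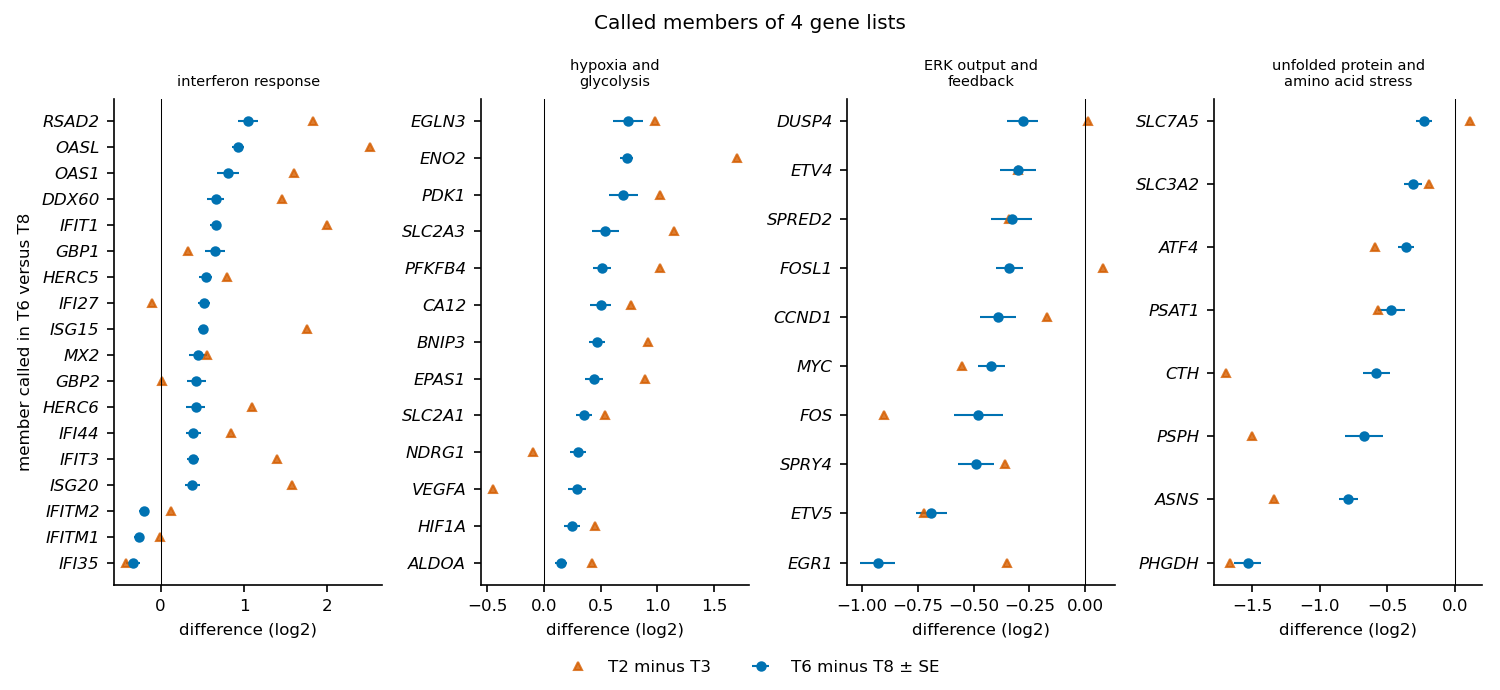
Members called between T6 and T8 in 4 lists, with T6 minus T8 and its standard error (circles) and T2 minus T3 (triangles), in log2. Interferon members rise to 1.05 for RSAD2, amino acid members reach -1.53 for PHGDH, and VEGFA, NDRG1 and IFI27 are members with the 2 markers on opposite sides of 0.

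Cell cycle and DNA replication genes were lower in T6 in 12 of 42 tested members and higher in 1. TYMS, thymidylate synthase, read 12.64 and 12.68 in T6 and 13.16 on both T8 arrays (-0.50 ± 0.06, adjusted p = 6.54e-05), and CCNB1 (-0.33), the replicative helicase subunits MCM3 (-0.32) and MCM4 (-0.24), TK1 (-0.31) and BIRC5 (-0.35) were lower by less. Cyclin E1 (CCNE1, 0.38) was the higher one. The calls of BIRC5 without T6 replicate 1 and of CCNE1 and CCND1 without T6 replicate 2 ended. Between T2 and T3, 8 members were higher in T2 and 4 lower, against 2069 and 2525 of all 14929 genes tested. Called the same way in both pairs were 3 members, whereas 66.3% of all T6 and T8 calls were. The pairs differed in 12 of the 42, against 11.3% of all genes tested. Repeated quantile normalisation gave 9 lower and 3 higher members, and the median of T6 minus T8 moved from -0.14 to -0.05. With a gene's probe sets averaged, 7 were lower and 0 higher. The lower calls fell to 3 without T6 replicate 1, 5 without T6 replicate 2, 6 without T8 replicate 1 and 4 without T8 replicate 2. Oxidative phosphorylation genes had 6 lower and 1 higher of 25, led by the complex I subunit NDUFB5 (-0.42 ± 0.07, adjusted p = 0.000819), with 1, 4, 5 and 2 lower in the same order of arrays left out. NDUFB5 lies in a stretch of chromosome 3 that was lower as a whole, described below.

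Of 11 genes to be given whatever they showed, which include the drug's targets, 0 were called (limma; 3 of 11 at an unadjusted p under 0.05, or 27.3%, against 27.1% of all genes tested). With 15.1% of all genes called, 0 of 11 is not far from the background. BIRC2, which encodes cIAP1, read 12.49 and 12.53 in T6 and 12.57 and 12.55 in T8, and the 95% interval of its difference ran from -0.17 to 0.08. XIAP read 9.95 and 9.81 against 10.14 and 9.93, with an interval of -0.42 to 0.11. For DIABLO, which encodes Smac itself, the interval was -0.10 to 0.17, and for the TNF receptor TNFRSF1A it was -0.13 to 0.14. These intervals hold no difference of log2 1 or more. That of XIAP does hold a fall of 0.38, the median size over the called genes, and the others do not. TNF, the ligand, was near background in both tumours at 4.67 and 4.88 against 4.71 and 4.68 (-0.25 to 0.41). CASP8 (0.28, interval 0.01 to 0.54), SPARC (0.32, 0.01 to 0.63) and MMP1 (-0.21, -0.37 to -0.05) did not pass after adjustment. CASP8 was called with repeated quantile normalisation and with only the T6 and T8 arrays in the fit, where MMP1 was called too, and DIABLO with repeated quantile normalisation.

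LRIG1, a feedback inhibitor of EGFR-family receptors, read 7.73 and 7.42 in T6 and 7.92 and 7.68 in T8, so that the arrays overlapped (interval -0.54 to 0.08), and 0 of 3 LRIG family members were called or passed unadjusted. PTGS2 (interval -0.38 to 0.14) and PLCB4 (-0.61 to 0.13) were not called, although T2 and T3 differed in them by -2.51 and -1.12 and the pairs differed (adjusted p = 8.01e-07 and 0.0317). BIRC3 and RIPK1, of the same set, were not analysed here.

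Calls among other death genes went both ways. Against 15.1% of all genes tested, the share called was 20.0% in the IAP list, 53.8% of death ligands and receptors and 33.3% of the BCL2 family. It was 33.3% of caspase and apoptosome genes and 11.5% of the TNF receptor complex. In the IAP list, BIRC7 (0.52) was higher and BIRC5 (-0.35) lower, of 10. Of 13 death ligands and receptors 3 were higher and 4 lower: TNFSF10, which encodes TRAIL, read 7.96 and 7.78 in T6 and 7.43 and 7.22 in T8 (0.54 ± 0.10, adjusted p = 0.00245), against 10.15 in parental cells. Its decoy receptor TNFRSF10D read 8.90 and 8.82 against 9.41 and 9.34 (-0.51 ± 0.10, adjusted p = 0.00358), and FAS was lower too (-0.44). Both TNFSF10 and FAS differed between the pairs (adjusted p = 0.00943 and 0.00884), since T2 minus T3 was -0.11 for TNFSF10, not called, and -1.11 for FAS. In the BCL2 family 3 of 15 were higher, BCL2A1 (0.73), BIK (0.68) and PMAIP1 (0.23), and 2 lower, BCL2 (-0.49) and BOK (-0.26). Of 12 caspase and apoptosome genes 4 were lower and 0 higher (4 and 1 unadjusted), CASP4 (-0.37), CASP2 (-0.36), GSDME (-0.24) and CYCS (-0.23). In the TNF receptor complex TRAF5 (0.50) and CFLAR (0.28), the caspase-8 inhibitor, were higher and IKBKG (-0.29) lower, of 26. Alternatives were run for each of these genes but CYCS, and the calls of TNFRSF10D and BIK held under all of them. CASP2 lost its call with probe sets averaged, and each of the other 13 lost it without T6 replicate 1. The calls in the 5 lists, 2, 7, 5, 4 and 3 in this order, were 0, 1, 1, 1 and 0 without T6 replicate 1, 1, 3, 2, 2 and 1 without T6 replicate 2, 1, 2, 2, 1 and 1 without T8 replicate 1, and 1, 3, 2, 1 and 0 without T8 replicate 2.

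Secreted signals divided between the tumours. Of 27 chemokine and interleukin genes 9 were higher and 4 lower in T6. CXCL8, the neutrophil chemokine IL-8, read 8.84 and 8.92 in T6 and 9.81 and 9.78 in T8 (-0.91 ± 0.08, adjusted p = 7.29e-06), and CXCL1, of the same family, was lower as well (-0.76). CCL26, an eosinophil chemokine, read 7.52 and 7.38 against 6.39 and 6.42 (1.04 ± 0.18, adjusted p = 0.00138), IL1R1, the interleukin-1 receptor, 7.12 and 7.10 against 6.30 and 5.94 (0.99 ± 0.16, adjusted p = 0.000779), and IL32 8.86 and 8.87 against 7.88 and 7.96 (0.94 ± 0.09, adjusted p = 7.68e-06). CXCL2 (0.18) and CXCL3 (0.34), of the same family as CXCL8 and CXCL1, were not called. IL6 (0.57) and IL1B (0.41) were also higher in T6, although T2 minus T3 was -0.59 for IL1B (adjusted p of the difference 0.000468). IL1R1 was at 0.65 with probe sets averaged. These genes overlap with the list of NF-kB targets, which split 7 higher and 6 lower of 31, with ICAM1 (-0.56) and PLAU (-0.40) lower and VCAM1 (0.69) and C3 (0.58) higher. Whichever array was left out, the chemokine calls numbered 5 higher and 2 lower. The NF-kB calls numbered 3 higher and 4 lower without T6 replicate 2 and 3 higher and 5 lower without T8 replicate 2, and VCAM1 lost its call in both cases.

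Matrix lists had calls in both directions. Collagens and collagen enzymes had 8 higher and 4 lower of 30, matricellular proteins and proteoglycans 4 and 4 of 27, matrix metalloproteinases and TIMPs 3 and 5 of 23, and integrins and laminins 3 and 3 of 26. The higher collagen genes were COL4A5, the collagen VI chains COL6A3 (0.60), COL6A1 (0.47) and COL6A2 (0.30), COL7A1 (0.61), COL5A1 (0.38) and the prolyl and lysyl hydroxylases P4HA2 (0.48) and PLOD1 (0.27). COL8A1, a short-chain collagen, was the largest in the other direction, at 10.02 and 10.18 in T6 and 11.19 and 11.09 in T8 (-1.04 ± 0.08, adjusted p = 2.66e-06), and LOX, which cross-links collagen, read 9.34 and 9.37 against 10.07 and 10.10 (-0.73 ± 0.10, adjusted p = 0.000203). All 12 calls were in the same direction in T2 and T3. P3H2 (-0.40) had no stable direction, since its other probe set gave 0.61, and COL6A1 lost its call with probe sets averaged or less specific ones excluded. Without an array 5 or 6 of the higher and 3 of the lower calls were made.

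Among the matricellular and proteoglycan genes and their enzymes, VCAN read 7.54 and 7.36 in T6 and 6.25 and 6.02 in T8 (1.32 ± 0.17, adjusted p = 0.000145), whereas HAS2, which makes hyaluronan, read 8.43 and 8.35 against 9.33 and 9.29 (-0.92 ± 0.12, adjusted p = 0.00015). MMP3 (-0.85), TNC (-0.58) and CCN2 (-0.49) were lower in T6 too. The call of TNC ended without replicate 1 of T6 or of T8 and with probe sets averaged. TAGLN, a smooth-muscle actin-binding protein, was higher by 0.83, but its call was lost at the probe sets left when less specific ones were excluded. In the TGF-beta, activin and BMP pathway 10 were higher and 4 lower of 36. The activin subunit INHBB read 8.63 and 8.84 in T6 and 7.71 and 7.73 in T8 (1.02 ± 0.12, adjusted p = 0.000112), and ID2, a BMP-induced inhibitor of differentiation factors, read 8.92 on both T6 arrays against 8.04 and 7.96 (0.92 ± 0.12, adjusted p = 0.000253). The BMP antagonist NOG (-0.58) and BMP4 (-0.35) were lower. Without an array 6 to 8 were higher and 2 or 3 lower, with 6 higher without T6 replicate 2 or T8 replicate 2.

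Smaller families followed. Of 11 tested S100 genes 5 were higher in T6, with S100P and S100A2 (0.63 ± 0.07, adjusted p = 8.04e-05) in front, and S100A4 alone was lower (-0.49 ± 0.07, adjusted p = 0.000486); without T6 replicate 1 or T8 replicate 1 the higher calls were 3. Serpins and the plasminogen system had 6 lower of 17, among them SERPINA1, SERPINI1 (-0.70, not called without replicate 1 of T6 or of T8), SERPINE2 (-0.50) and the plasminogen activators PLAT (-0.48) and PLAU (-0.40), and the tissue factor gene F3 (0.48) higher. Notch pathway genes had 4 higher and 0 lower of 22 (5 and 2 unadjusted), DNER (0.71), HES4 (0.53), NOTCH3 (0.39) and JAG1 (0.25), and 2 whichever array was left out. NOTCH3 lost its call under 9 alternatives and DNER without T8 replicate 2. YAP and TEAD targets had 2 higher and 6 lower of 26, with FAT1 (-0.51), CCN2 (-0.49) and the kinase LATS2 (-0.46) largest among the lower; the calls numbered 1 higher and 4 lower without T6 replicate 1, T6 replicate 2 or T8 replicate 2. ABC transporters had 2 higher and 2 lower of 17, with a median of 0.04. Among the higher, the efflux pump ABCG2, which lowers drug levels in cells, read 8.02 and 8.09 in T6 and 7.25 and 7.27 in T8 (0.79 ± 0.11, adjusted p = 0.000223).

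Markers of other cell types were read beside these groups. Of 11 tested endothelial markers 4 were lower in T6 and 0 higher (4 and 1 unadjusted), ROBO4 (-0.68), CDH5 (-0.89), TIE1 (-0.71) and KDR (-0.46), and the mean of the 12 marker genes was 6.22 to 6.26 in T6 and 6.42 to 6.46 in T8. CDH5 was at 4.27 in T6 and 5.16 in T8, and TIE1 at 4.80 and 5.51. Both had means under log2 5 in parental cells, T2 and T3. By these means they passed the filter through T8, where they are high, so their calls add no support. Between T2 and T3, 2 members of this list were higher in T2 and 0 lower, with ROBO4 at 0.29, opposite to T6 minus T8. The other 7 tested were not called. PECAM1 was at 7.08 in T6 and 6.73 in T8, VWF at 4.71 and 4.65, and EMCN, below the filter, at 3.74 and 3.80. ROBO4 was at 9.21 in the cultured parental cells, which hold no endothelium, and its difference was -0.41 with probe sets averaged. The part of endothelial RNA in the difference of ESM1, itself an endothelial gene, was not tested. Leaving out an array gave 2 endothelial calls, or 3 in the case of T8 replicate 2, with KDR lost in each case and TIE1 in the other 3. Macrophage markers averaged 5.26 to 5.35 in T6 and 5.25 to 5.41 in T8, with PTPRC, CD163 and MRC1 under log2 5 and 1 call, LAPTM5 (-0.41), which was at 10.66 in parental cells. Fibroblast and pericyte markers averaged 5.66 to 5.67 and 5.61 to 5.63, and blood and lymphocyte markers 5.37 and 5.32 to 5.36, with 1 lower call each (ACTA2, -0.41, and CD8A, -0.49). The call of CD8A ended without any 1 array and that of ACTA2 without T6 replicate 2 or either T8 array. Adipocyte and muscle markers averaged 4.79 to 4.84 and 4.78 to 4.94, with 0 of 5 called or passing unadjusted. The part of these markers in the gene groups above was not tested.

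The differences also gathered along chromosomes. The median of T6 minus T8 over 31 neighbouring tested genes, in RefSeq order, reached a size of 0.25 in 31 stretches. They held 381 of the 14893 genes placed. By the median of a stretch's own genes, which can differ in sign from the window's median, 26 were lower and 5 higher in T6. Of those 5, LPP (0.31) and GPNMB (0.92) were 1 gene each, and CRHR2 to INMT (0.08) was 2 genes. Of these 381 genes 191 were called, or 50.1%, against 14.2% of the genes outside, although the same values define the stretches, so that this is a description. They held 8.48% of all calls. The 11 stretches with 10 or more genes are described, a size chosen after the values were seen. By chromosome, the share of genes called was highest on X, at 36.3% of 476 genes (79 higher and 94 lower), and lowest on chromosome 22, at 8.72% of 390.

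Chromosome X held long stretches in opposite directions. From ARSD to PHKA2 the 48 tested genes had a median of 0.39, 28 were higher in T6 and 0 lower, and 43 had a positive difference. Against parental cells the median was 0.10 in T6 and -0.23 in T8, and T2 minus T3 was 0.63 over the same genes. CLTRN belongs to it, as do SHROOM2, an actin-organising protein, at 8.21 and 8.15 in T6 and 7.46 and 7.29 in T8 (0.81), and CTPS2, a CTP synthase, at 9.05 and 9.13 against 8.35 and 8.24 (0.79). T6 was thus near the parental level over this stretch and T8 below it. From TNMD to LOC286437 the 33 genes had a median of -0.32, with 19 lower and 0 higher, 0.06 in T6 and 0.31 in T8 against parental cells, and -0.89 in T2 minus T3. Here BEX5, BEX2 (-0.99) and ARMCX2 (-0.82) lie close together, and the pairs differed in 21 of the 33 genes.

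On chromosome 3 the 59 genes from TNIK to TRA2B had a median of -0.28, with 29 lower and 2 higher, and T2 minus T3 was also -0.28. LAMP3 in that stretch went against the other pair, at 6.93 and 6.81 in T6 and 7.55 and 7.44 in T8 (-0.62) but 6.82 in T2 and 5.13 in T3. The 19 genes from LINC01968 to CEP19 followed on the same chromosome with -0.31. Chromosome 19 had the 33 genes from C3P1 to KANK2 at -0.32, with 22 lower and 0 higher, which include ICAM1, and 3 further stretches, ELOF1 to ZNF709 (16 genes, -0.35, all 16 below 0), YJU2B to PRKACA (14 genes, -0.18) and SMIM7 to GTPBP3 (16 genes, -0.31). Along the 4 stretches of chromosome 19, T6 was at the parental level (0.01 to 0.09) and T8 above it (0.29 to 0.48).

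The 24 genes from NEUROD6 to TARP on chromosome 7 had a median of -0.31, with 13 lower and PDE1C among them, and the 33 from GPAT2 to LYG2 on chromosome 2 had -0.26, with 16 lower, led by COA5 (-0.82) and GPAT2 (-0.73). T2 minus T3 had the same sign over all of the stretches of 10 or more genes but that from TRAF1 to PTGS1 on chromosome 9, whose 13 genes had medians of -0.07 and 0.14. The extent depended on the processing: 155 genes lay in stretches after repeated quantile normalisation, 614 after centring and 103 when a gene's probe sets were averaged.

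**Figure D5:**
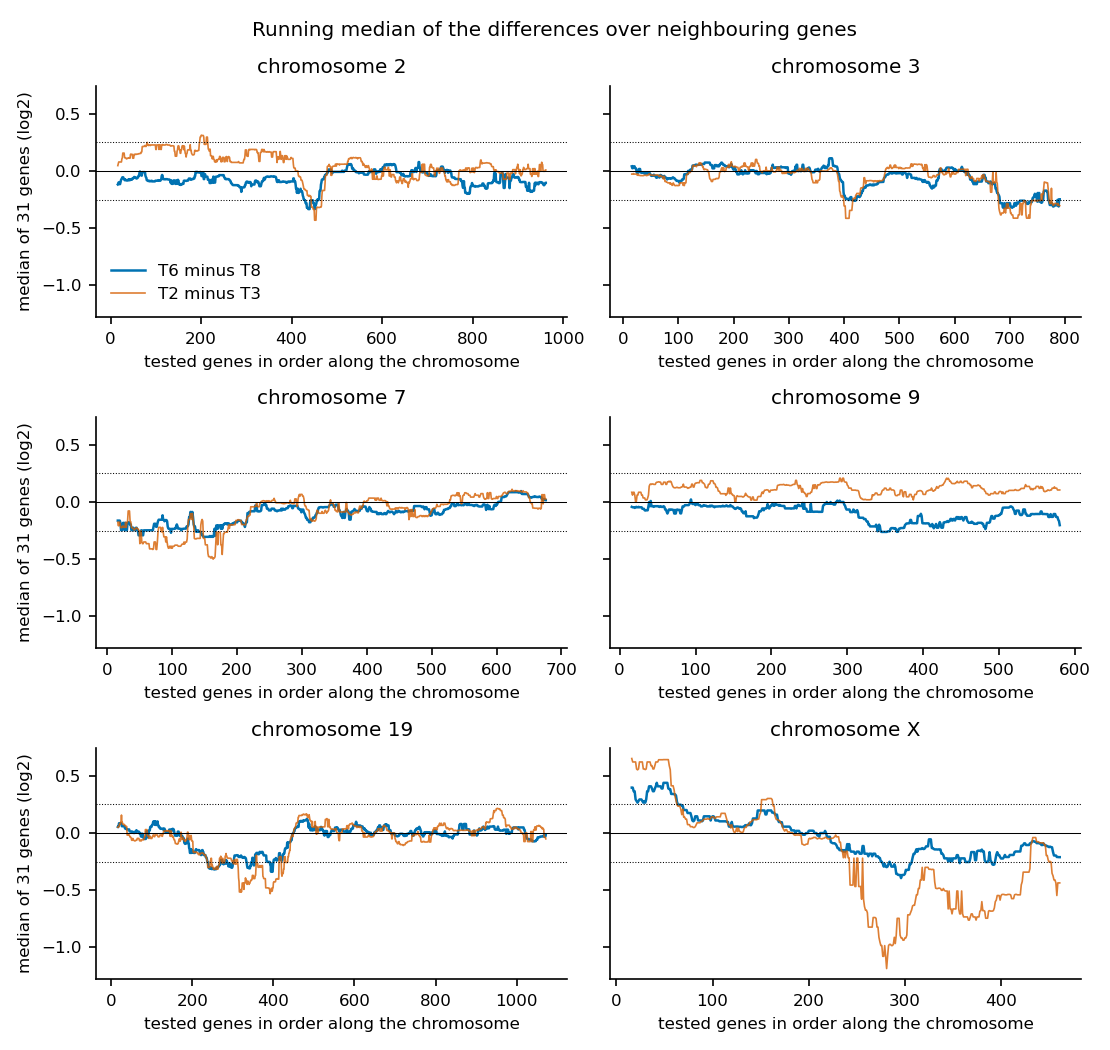
Running median over 31 neighbouring tested genes of T6 minus T8 and of T2 minus T3, in log2, against gene order along chromosomes 2, 3, 7, 9, 19 and X; dotted lines mark 0.25 in either direction. T6 minus T8 is above the upper line at the start of X and below the lower line further along it and in stretches of the other chromosomes, where T2 minus T3 mostly runs to the same side; on chromosome 9 it does not.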

How the data were processed

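Total RNA was measured on Affymetrix arrays in 5 lines, 2 arrays each. The authors deposited log2 expression values of 54675 probe sets. The submitters' processing notes name the packages affy and limma and the method RMA, without versions or settings. RMA includes a background correction and a quantile normalisation across arrays. Differences computed from such values are log2 differences.

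Gene symbols came from the platform's annotation, updated by Entrez number against the RefSeq table of GRCh38.p14 (41037 probe sets matched, whether or not the symbol changed). After 62 controls, 41091 had 1 symbol, 1801 several and 11721 none, the last 2 kinds being left out. Each gene was represented by its brightest probe set on average, giving 19775 genes, of which 14929 reached log2 5 on at least 2 arrays and were tested. Between 14096 and 14640 genes reached log2 5 on an array, and array medians were 5.435 to 5.573. Precision is limited by the 2 arrays a line.

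limma 3.58.1 under R 4.3.3 fitted 1 coefficient per line over all 10 arrays (lmFit, eBayes with a trend; 5 residual and 9.39 prior degrees of freedom), with contrasts T6 minus T8, T2 minus T3 and their difference. Calls are at a Benjamini-Hochberg adjusted p under 0.05 over all genes tested; errors are the fit's standard errors (SE). The procedure was tested on simulated data.

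Named genes were the 15 largest called differences per direction with arrays apart and a higher mean of at least log2 6, up to 3 called members per direction of each list and of each stretch of neighbouring genes, or the largest member of a list with no call, and 14 genes given whatever they showed, of which 3 are not reported here. Other called list members are given as examples. The tumours, gene lists and rules were chosen with earlier results of these data known. Positions in the RefSeq table gave only the order of neighbouring genes; promoter windows are RefSeq's. Alternatives were the scaling, the filter, the choice of probe set, a replicate block, the arrays in the fit, the variance trend and each array left out.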

Additional observations from a re-analysis of the deposited data

Results flagged for a closer look

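The test of the difference between the pairs passed in 17 of the 30 genes with the largest differences between T6 and T8. Over all genes tested it passed in 11.3%. The 30 were chosen by T6 minus T8, which is part of this test, so the 17 are no separate support. In the 17 genes, T6 minus T8 and T2 minus T3 were not alike by this test. The values are (T6 minus T8) minus (T2 minus T3), on the log2 scale, and all come from the limma fit with Benjamini-Hochberg adjustment over all genes tested.

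In the genes higher in T6, the difference was larger between T2 and T3 for UCA1 (-1.42), CLTRN (-1.35), KYNU (-1.07), WDR72 (-1.03) and CSGALNACT1 (-0.95). It was larger between T6 and T8 for NHSL2 (0.93), ANXA10 (0.72) and ENTPD3 (0.50). In the genes lower in T6, the difference was larger between T2 and T3 for ESM1 (2.55), MAGEC1 (1.54), PDE1C (1.44), GALNT14 (0.79), REEP1 (0.59) and FBP1 (0.40). It was larger between T6 and T8 for ZNF542P (-1.60), FAT3 (-1.09) and TSPYL5 (-0.46). Of these 17 genes, ZNF542P was the one not called between T2 and T3, at 0.03.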

How the results depend on the processing

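The calls between T6 and T8 numbered 2253, and 1376 with centred medians, 1492 without less specific probe sets (fewer genes tested) and 3904 with only the T6 and T8 arrays in the fit. With an array of T6 or T8 left out they were 940 to 1124. Other settings gave 1588 to 2678. The calls on the difference between the pairs numbered 1691, and 890 with centred medians, 1109 without less specific probe sets and 935 to 1710 with an array left out, the lone array being assumed to vary like the others. Calls between T2 and T3 numbered 4594, and 3235 to 5302 under all alternatives. Genes in stretches numbered 381, and 155 with repeated quantile normalisation, 614 with centred medians, 179 with no filter, 103 with averaged probe sets and 215 without less specific probe sets; leaving out an array gave 370 to 437. Except for leaving out arrays and genes, the cause was not tested.

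The deviations of replicate 1 from replicate 2 were correlated between lines. The correlation was 0.24 for T6 and T8, 0.50 for T2 and T3, and 0.15 and 0.31 for parental cells with T6 and T8. Between T2 or T3 and the other lines it was -0.39 to -0.14. The replicate numbers thus mark no single pairing over all lines, and the source of the shared deviations was not tested. With the replicate block, 2124 genes were called between T6 and T8, 4447 between T2 and T3 and 1560 on the difference.

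Of 226 named genes 214 were called, and 113 of them kept the call under every alternative that tested them; leaving out T6 replicate 1 lost the most, 75. Of the 30 largest differences, HSPB8 lost its call. P3H2 changed sign, to 0.11 with averaged probe sets and 0.61 without less specific ones. Of 1254 called genes with a further tested probe set, 1129 had the same sign there. Near background, as for ESM1 in T6, the size of a difference is limited by the signal.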
